A study of Mus musculus with 6 samples.

Results

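The genes described here carry transforming growth factor beta (TGF-beta) signals from the cell surface to the nucleus. They are 10 of the 54532 genes in the deposited table, taken by gene name: the ligand *Tgfb1*, the receptors *Tgfbr1* and *Tgfbr2*, the receptor-activated SMADs *Smad2* and *Smad3*, the shared partner *Smad4*, the inhibitory SMADs *Smad6* and *Smad7*, and the corepressors *Ski* and *Skil*. Their RNA was measured by RNA-seq in bone marrow LSK cells, which lack lineage markers, carry Sca1 and c-Kit and include hematopoietic stem and multipotent progenitor cells. The Myh9-deficient group (cKO) came from Myh9 fl/fl mice with Mx1-cre and the control group (CTRL) from littermates with floxed *Myh9* and no cre, all on C57BL/6, with 3 libraries in each group. *Myh9* encodes the heavy chain of non-muscle myosin IIA. Both groups received poly I:C at 5 mg/kg, in 2 doses by the sample labels and in 3 by the study's methods, and LSK cells were sorted 4 days after the first dose, 100000 for each library. The mice were genotyped at 4 to 5 weeks of age. *Mx1-cre* is driven by an interferon-responsive promoter that is active outside blood cells too, and the controls received poly I:C but carried no cre. How many mice gave each set of cells is not given in the sources used here, so the p-values measure the spread between these libraries.

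TGF-beta is secreted in a latent form and, once released, binds the type II receptor, which activates the type I receptor. The type I receptor phosphorylates Smad2 and Smad3, which join Smad4 and enter the nucleus to regulate genes, while Smad7 and Smad6 block the receptor step and Ski and SnoN (the product of *Skil*) hold SMAD target genes silent. *Smad7* and *Skil* are themselves known targets of the pathway and close a negative feedback loop. In bone marrow, TGF-beta is known for holding hematopoietic stem cells in quiescence.

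The stretch of DNA before the start of each gene was read from RefSeq (GRCm38.p6), which had an entry for 6 of the 10 genes in the table used (*Tgfb1*, *Tgfbr1*, *Tgfbr2*, *Smad3*, *Smad6* and *Ski*). Shown are *Tgfbr1* and *Ski*, whose RNA was lower in Myh9-deficient LSKs, and *Tgfbr2*, the only one of the 10 whose mean was higher. The sequences run 5′ to 3′ on the strand of the gene, and capitals mark the GC box letters GGGCGG or CCGCCC, its reverse complement, and the SMAD box core CAGAC. *Tgfbr1* is at chr4:47352972-47353221 on the plus strand, *Tgfbr2* at chr9:116175364-116175613 on the minus strand and *Ski* at chr4:155222593-155222785 on the minus strand.
Tgfbr1: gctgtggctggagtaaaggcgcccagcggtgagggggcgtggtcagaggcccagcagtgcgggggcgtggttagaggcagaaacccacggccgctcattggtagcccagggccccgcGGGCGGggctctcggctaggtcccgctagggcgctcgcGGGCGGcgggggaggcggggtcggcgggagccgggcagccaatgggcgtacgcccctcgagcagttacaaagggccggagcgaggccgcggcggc
Tgfbr2: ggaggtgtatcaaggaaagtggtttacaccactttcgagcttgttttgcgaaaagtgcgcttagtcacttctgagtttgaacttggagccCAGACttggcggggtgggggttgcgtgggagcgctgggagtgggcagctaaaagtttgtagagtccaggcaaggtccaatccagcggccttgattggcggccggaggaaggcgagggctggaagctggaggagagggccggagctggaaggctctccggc
Ski: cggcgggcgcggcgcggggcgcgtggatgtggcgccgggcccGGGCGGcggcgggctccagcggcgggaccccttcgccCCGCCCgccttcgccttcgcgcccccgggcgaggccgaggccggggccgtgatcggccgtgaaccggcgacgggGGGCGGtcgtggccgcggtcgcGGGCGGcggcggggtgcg
For *Ski*, 57 further bases before the RefSeq start lie inside the gene as the deposited table places it and were left off. G and C made up 74.8% of the *Tgfbr1* stretch, 58.4% of *Tgfbr2* and 86.5% of *Ski*, with a median of 52.4% over 250 bases of all 32851 promoters. The printed stretch holds 2 GC boxes for *Tgfbr1*, 4 for *Ski* and 0 for *Tgfbr2*, and it holds 1 CAGAC for *Tgfbr2* and 0 for *Tgfbr1* and *Ski*. On both strands of the 250 bases, GGGCGG was found in 5 of the 6 genes with an entry and in 32.7% of all promoters, and CAGAC in 1 of the 6 and in 42.2%. The palindromic SMAD box GTCTAGAC (0.167% of all promoters) and the AP-1 site TGACTCA (4.46%) had 0 matches in the 6, and none of the 4 motifs contains another. These are matches of letters in a short window and carry no information on binding.

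In Myh9-deficient LSKs the mean level was lower for 9 of the 10 genes and higher for *Tgfbr2* alone. Levels are FPKM, which correct the fragment number for the length of the gene and the size of the library and so allow genes to be compared. Of the 10 genes, 9 had a mean of at least 1 FPKM and were tested, and 6 of these were lower at an adjusted p under 0.05 (*Tgfb1*, *Tgfbr1*, *Smad2*, *Smad4*, *Smad7* and *Ski*), which is 66.7% of those tested. Among all 11552 genes tested, 20.6% were lower and 19.9% higher at this threshold, 40.5% in all. The 10 genes were chosen with earlier results of these data known, so these shares are a description and not a test. None of the 9 was higher by limma, 0 were higher at an unadjusted p under 0.05, and 0 of 10 were higher by voom on the recovered reads. The median log2 fold change of the 9 was -0.20, beside -0.0096 over all genes tested. None of the 9 passed a 2-fold change with an unadjusted p under 0.05, as 2.13% of all genes tested did. All 3 cKO libraries lay below all 3 CTRL libraries for 8 of the 10 genes, against 28.5% of all genes tested, and above them for 1, against 25.5%. The test was limma's moderated test with a trend on log2(FPKM + 1), two-sided, with p-values adjusted by Benjamini-Hochberg over all 11552 genes, and fold changes below are on this scale, which understates those of genes at low levels. In RNA from a sorted population, fewer cells of a type and less RNA per cell cannot be told apart.

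**Figure D1:**
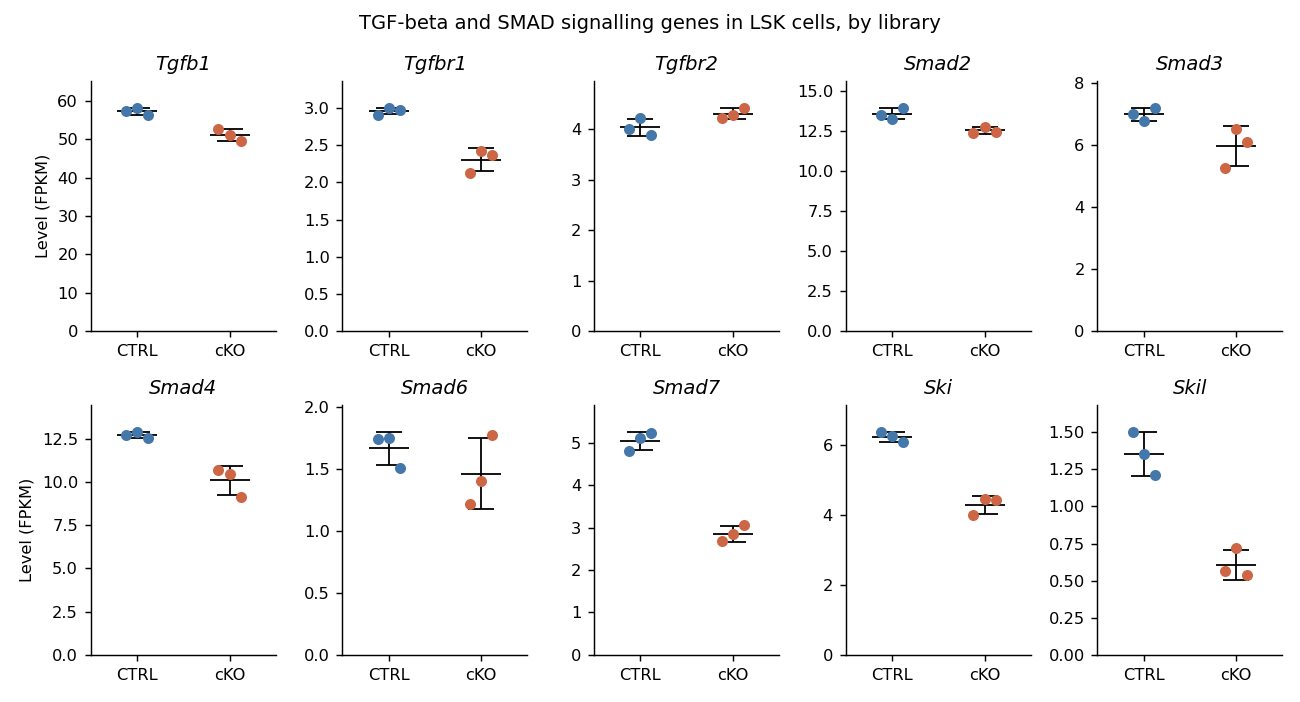
Level in FPKM (y axis, from 0) of each of the 10 genes in the 3 CTRL (blue) and 3 cKO (orange) libraries, where each point is 1 library, the wide bar is the mean and the capped line is 1 SD. The cKO points lie below the CTRL points in every panel except *Tgfbr2*, where they lie above, and *Smad6*, where the groups overlap.

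The ligand had by far the most RNA. *Tgfb1* (ENSMUSG00000002603, chromosome 7 from 25687002 to 25705077, mm10) was at 57.4, 58.2 and 56.3 FPKM in CTRL and at 52.8, 51.2 and 49.5 FPKM in cKO libraries. All cKO values were under all CTRL values, with the 3 cKO libraries spread more widely than the 3 CTRL libraries. *Tgfb1* fell by 10.7% in mean FPKM, with a log2 fold change of -0.16 (SE 0.032, adjusted p = 0.00813, limma). Its mean level exceeded that of 89.9% of the genes tested, and 4644 to 5760 reads stood behind it in each library.

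Of the receptors, *Tgfbr1* was lower and *Tgfbr2* did not pass the test. *Tgfbr1*, the type I receptor kinase (ENSMUSG00000007613, chromosome 4 from 47353222 to 47414931), was at 2.91, 2.996 and 2.97 FPKM in CTRL and at 2.12, 2.43 and 2.37 FPKM in cKO libraries. It fell by 22.01% in mean FPKM (log2 fold change -0.26, SE 0.060, adjusted p = 0.0143, limma), on 260 to 378 reads a library. *Tgfbr2*, the ligand-binding type II receptor kinase (ENSMUSG00000032440, chromosome 9 from 116084293 to 116175360), was at 4.00, 4.21 and 3.88 FPKM in CTRL and at 4.21, 4.28 and 4.42 FPKM in cKO libraries. The lowest cKO and the highest CTRL library of *Tgfbr2* are equal to 3 digits and differ beyond that. Its log2 fold change of 0.08 did not pass (95% interval -0.04 to 0.19, adjusted p = 0.257, limma), although it did once trends over GC content and over length had been removed from the libraries (0.16, adjusted p = 0.0382).

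The ratio of *Tgfbr2* to *Tgfbr1* shows this difference without a scaling between libraries. It was 1.38, 1.40 and 1.31 in CTRL and 1.98, 1.76 and 1.86 in cKO libraries, a difference of 0.46 in mean log2 ratio. The groups did not overlap, and the exact permutation test gave p = 0.1, the smallest that 3 libraries against 3 allow (two-sided, adjusted p = 0.1 over the 5 such values computed). None of these 5 values could therefore pass a threshold of 0.05.

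The receptor-activated SMADs had small differences. *Smad2* (ENSMUSG00000024563, chromosome 18 from 76241580 to 76305731) was at 13.5, 13.3 and 13.9 FPKM in CTRL and at 12.4, 12.7 and 12.4 FPKM in cKO libraries. The groups were apart by less than 1 FPKM, and *Smad2* fell by 7.66% in mean FPKM (log2 fold change -0.11, SE 0.035, adjusted p = 0.0489, limma). That call was lost in 11 of 18 alternatives, among them the fit without any 1 of the 6 libraries (adjusted p = 0.0665 to 0.135) and voom (adjusted p = 0.168). *Smad3* (ENSMUSG00000032402, chromosome 9 from 63646767 to 63757994) was at 6.99, 6.78 and 7.20 FPKM in CTRL and at 5.25, 6.53 and 6.11 FPKM in cKO libraries. The cKO libraries were all lower but spread widely, and the log2 fold change of -0.20 did not pass (95% interval -0.38 to -0.03, adjusted p = 0.0674, limma). It did pass without cKO library 2, the highest of the 3 (-0.26, adjusted p = 0.0339), and with voom (-0.22, adjusted p = 0.0227). The change was smaller and did not pass without cKO library 1, the lowest (-0.126, adjusted p = 0.121, limma). The same held with GC content and length trends removed (-0.132, adjusted p = 0.19, limma). Taken as a sum, *Smad2* and *Smad3* were at 20.48, 20.03 and 21.1 FPKM in CTRL and at 17.6, 19.3 and 18.6 FPKM in cKO libraries, a difference of -0.15 on the log2 scale (exact permutation p = 0.1, adjusted p = 0.1).

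*Smad4*, the partner that every active SMAD complex of this pathway shares (ENSMUSG00000024515, chromosome 18 from 73639009 to 73703780), was at 12.7, 12.9 and 12.6 FPKM in CTRL and at 10.7, 10.4 and 9.13 FPKM in cKO libraries. The 3 CTRL libraries were close together, and the lowest cKO library was number 3. *Smad4* fell by 20.7% in mean FPKM (log2 fold change -0.31, SE 0.060, adjusted p = 0.00709, limma), and the call stayed without any 1 library (-0.35 to -0.25, adjusted p = 0.00721 to 0.0274).

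**Figure D2:**
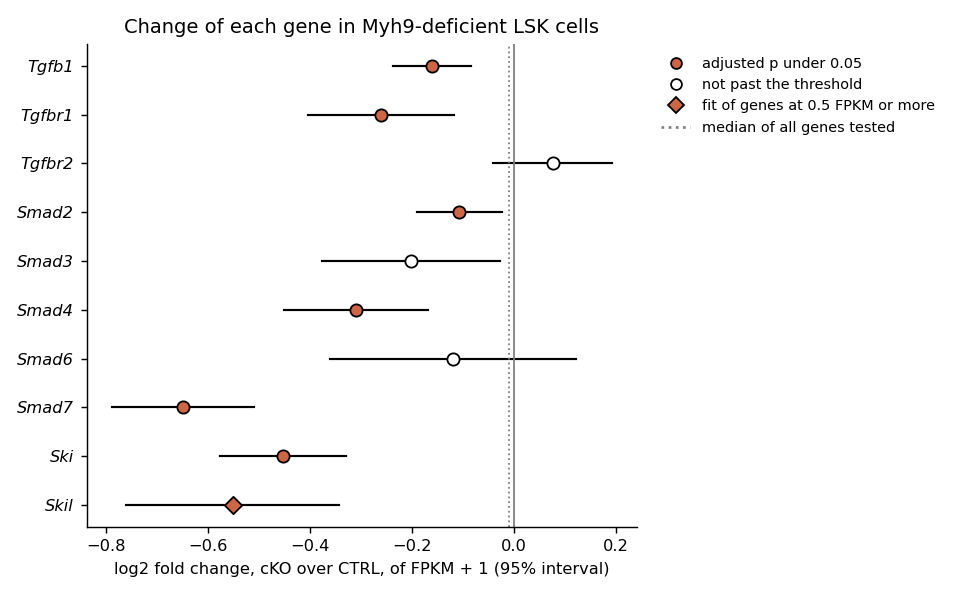
log2 fold change of FPKM + 1, cKO over CTRL (x axis), of each gene with its 95% interval, where filled circles passed an adjusted p under 0.05, open circles did not, and the diamond of *Skil* comes from the fit that also takes genes at 0.5 to 1 FPKM. *Smad7* at -0.65 lies farthest from 0, the interval of *Smad3* stays below 0 although its adjusted p did not pass, and the dotted line marks the median of all genes tested (-0.0096).

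Of the inhibitory SMADs, *Smad7* was lower and *Smad6* did not pass the test. *Smad7*, which competes for the type I receptor and recruits ubiquitin ligases to it (ENSMUSG00000025880, chromosome 18 from 75367529 to 75395935), was at 4.82, 5.11 and 5.23 FPKM in CTRL and at 2.68, 2.84 and 3.05 FPKM in cKO libraries. The highest cKO library was far below the lowest CTRL library. *Smad7* fell by 43.4% in mean FPKM (log2 fold change -0.65, SE 0.058, adjusted p = 3.18e-04, limma), and 2.16% of the genes tested had a lower fold change. The study singled out this gene on these same samples, so its direction here is not independent evidence. *Smad6*, which is known mainly as an inhibitor of the bone morphogenetic protein (BMP) branch (ENSMUSG00000036867, chromosome 9 from 63953076 to 64022059), was at 1.74, 1.75 and 1.51 FPKM in CTRL and at 1.22, 1.40 and 1.78 FPKM in cKO libraries. The groups overlapped because cKO library 3 had the highest value of all 6, and the log2 fold change of -0.12 did not pass (95% interval -0.36 to 0.12, adjusted p = 0.388, limma). The log2 fold change of *Tgfbr1* lies inside that interval, and 73 to 111 reads a library stood behind *Smad6*. With 1 library left out, the log2 fold change of *Smad6* ranged from -0.21 to -0.05 and never passed (adjusted p = 0.129 to 0.756, limma).

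*Smad7* was also set against other SMADs of the same library. The ratio of *Smad7* to *Smad6* was 2.77, 2.91 and 3.46 in CTRL and 2.20, 2.02 and 1.72 in cKO libraries, a difference of -0.62 in mean log2 ratio. The ratio of *Smad7* to the sum of *Smad2* and *Smad3* was 0.235, 0.255 and 0.248 in CTRL and 0.152, 0.147 and 0.165 in cKO libraries, a difference of -0.67. Neither ratio overlapped between groups, and each had an exact permutation p = 0.1 (adjusted p = 0.1).

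The corepressors were lower together, and *Skil* by the larger share. *Ski* (ENSMUSG00000029050, chromosome 4 from 155154075 to 155222592) was at 6.36, 6.24 and 6.07 FPKM in CTRL and at 3.99, 4.44 and 4.42 FPKM in cKO libraries. The groups were well apart, and *Ski* fell by 31.2% in mean FPKM (log2 fold change -0.45, SE 0.052, adjusted p = 8.57e-04, limma). *Skil* (ENSMUSG00000027660, chromosome 3 from 31095058 to 31122577) was at 1.50, 1.35 and 1.21 FPKM in CTRL and at 0.562, 0.719 and 0.538 FPKM in cKO libraries. Behind these stood 290, 231 and 225 reads in CTRL and 102, 127 and 97 reads in cKO libraries. No cKO library reached the level of any CTRL library, and the mean FPKM was 2.24-fold lower. With a mean under 1 FPKM, *Skil* was not among the genes tested. In a fit of 13056 genes whose mean reached 0.5 FPKM, an alternative chosen after seeing the data, its log2 fold change was -0.55 (SE 0.088, adjusted p = 0.00386, limma), and 18.6% of those genes were lower. With voom on the recovered reads it was -1.15 (SE 0.149, adjusted p = 3.64e-06), where 7 of the 10 genes and 19.7% of the 13944 genes fitted were lower.

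The ratio of *Skil* to *Ski* was 0.236, 0.217 and 0.199 in CTRL and 0.141, 0.162 and 0.122 in cKO libraries. The difference of -0.63 in mean log2 ratio had an exact permutation p = 0.1 (adjusted p = 0.1), with no overlap between the groups. Of the 4 ratios between members, the 3 that have *Smad7* or *Skil* on top were lower and the receptor ratio was higher in cKO libraries.

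**Figure D3:**
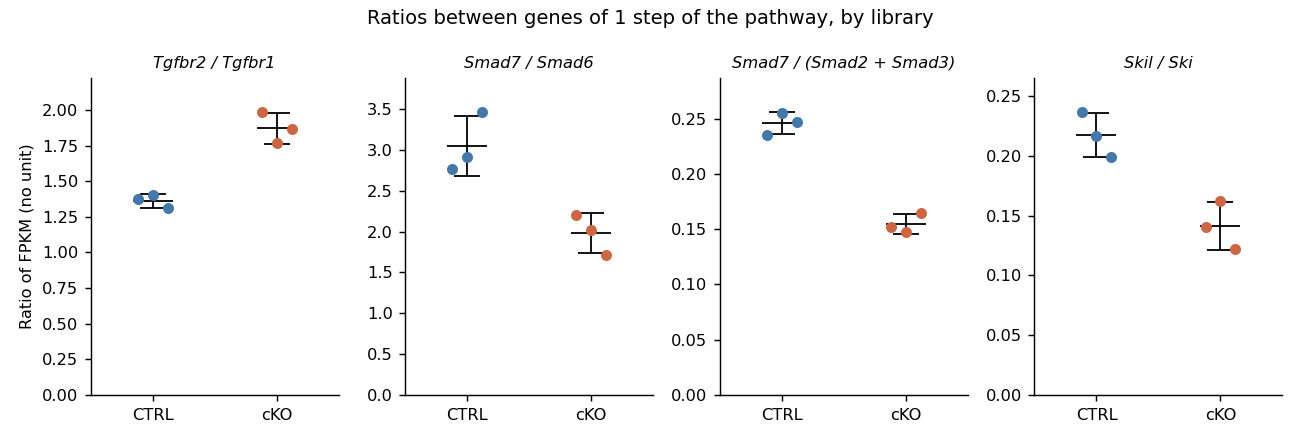
Ratios of FPKM (y axis, no unit, from 0) between genes of the pathway in the 3 CTRL (blue) and 3 cKO (orange) libraries, with the mean and 1 SD. The ratio of *Tgfbr2* to *Tgfbr1* lies between 1.76 and 1.98 in cKO libraries, above the CTRL range of 1.31 to 1.40, and the other 3 ratios lie lower in every cKO library than in any CTRL library.

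The order of levels differed between the groups in the place of *Tgfbr2*. In CTRL it was *Tgfb1*, *Smad2*, *Smad4*, *Smad3*, *Ski*, *Smad7*, *Tgfbr2*, *Tgfbr1*, *Smad6* and *Skil*, from high to low FPKM, and each gene was above the next in all 3 libraries. In cKO libraries *Tgfbr2* (mean 4.30 FPKM) stood above *Smad7* (2.86 FPKM) and *Ski* (4.28 FPKM). *Tgfbr2* and *Ski* did not differ beyond their spread there, and all other neighbours did. Several of the genes are neighbours on the chromosome: *Smad3* and *Smad6* lie 195.1 kb apart on chromosome 9, and on chromosome 18 *Smad7* lies 845.6 kb from *Smad2* and 1664 kb from *Smad4*. In the annotation, none of the 10 shares exon bases with another gene. The deposited length of *Smad2*, 3549 bases, is below the 8781 exon bases of GENCODE M21, so its FPKM holds for the authors' gene model only.

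The rest of the pathway was read from a list of 83 genes in 8 roles, of which 50 were tested. That list was written with earlier results of these data known, so its shares are a description and not a test. Of these 50, 18 were lower (36%, beside 20.6% of all genes tested), 5 were higher (10%, beside 19.9%) and 27 did not pass, with a median log2 fold change of -0.12. The 5 higher genes became 3 without CTRL library 1, CTRL library 3, cKO library 1 or cKO library 3, and 11 of 64 fitted with voom, where 22.3% of all genes fitted were higher. The counts by role below are small, and each is to be read beside the same shares of all genes.

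Of 9 genes that store or release latent TGF-beta, 3 were tested and these 3 were lower. *Nrros*, which tethers latent TGF-beta on myeloid cells, was at 67.1, 66.2 and 65.2 FPKM in CTRL and at 52.2, 49.9 and 50.6 FPKM in cKO libraries (log2 fold change -0.37). *Ltbp3*, a latent TGF-beta binding protein, and *Furin*, the protease that cleaves the ligand precursor, had log2 fold changes of -0.37 and -0.34. *Ltbp1*, another latent TGF-beta binding protein, lay under 1 FPKM and went the other way, with 36, 17 and 24 reads in CTRL and 86, 90 and 74 reads in cKO libraries. It was higher with voom (log2 fold change 1.77, SE 0.272, adjusted p = 2.71e-05), and it is named after its values were seen. None of the 10 other ligands listed reached 1 FPKM. *Tgfb2* had 0 to 5 reads and *Tgfb3* 0 to 2 reads in each library. With voom, *Bmp7* (log2 fold change 2.26, adjusted p = 0.00369) and *Gdf11* (1.36, adjusted p = 0.0148) were higher, on 1 to 21 and 4 to 25 reads a library. The other ligands had too few reads for that fit, and those named here are named after their values were seen. Of the 10 other receptors, 4 were tested, and *Bambi*, a pseudoreceptor that blocks signalling, was lower (-0.36) while 3 did not pass. Of the 6 SMADs and anchors of the BMP and receptor step, 2 were tested and neither passed. *Hgs*, one of them and also named for its values, was listed in 2 rows of the deposited table, both at 0 in every library.

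Of 17 genes of SMAD turnover and receptor control, 15 were tested, with 2 lower, 2 higher and 11 not past the threshold, both shares under those of all genes. *Usp11*, a deubiquitinase that acts on the receptor, fell from 14.7 ± 0.292 to 9.83 ± 0.408 FPKM (SD, n = 3, log2 fold change -0.54), and *Uchl5*, another deubiquitinase, rose from 41.5 ± 0.547 to 48.6 ± 0.407 FPKM (0.22). The calls of *Ldlrad4*, which keeps SMADs from the receptor (-0.34), and *Strap*, a receptor-binding protein (0.10), were weaker. That of *Ldlrad4* was lost without CTRL library 1 (adjusted p = 0.0806), CTRL library 2 (0.0788) or cKO library 3 (0.0583), and that of *Strap* without any 1 library but cKO library 2 (0.0949 to 0.123).

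Of 9 nuclear partners tested, 5 were lower and 0 higher by limma at an adjusted p under 0.05. *Zeb2*, a SMAD-binding repressor, was at 5.74, 6.02 and 5.42 FPKM in CTRL and at 3.01, 2.86 and 2.996 FPKM in cKO libraries (log2 fold change -0.76), a larger change than that of any of the 10 genes on this scale. In mean FPKM, *Skil* (2.24-fold lower) changed more than *Zeb2* (1.93-fold lower). *Tgif1*, a corepressor of Smad2, had a log2 fold change of -0.41, and *Sp1*, a factor that binds GC boxes, one of -0.28. Of the 5 genes of the branch that does not use SMADs, *Traf4*, an adaptor of the receptor, was higher (0.39) and 4 did not pass.

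Known target genes moved both ways. Of 12 tested, 7 were lower, 2 higher and 3 did not pass. *Id2* and *Id3*, which encode inhibitors of helix-loop-helix factors, went in opposite directions: *Id2* from 3.27 ± 0.540 to 9.17 ± 0.530 FPKM (SD, n = 3, log2 fold change 1.26) and *Id3* from 3.07 ± 0.246 to 1.06 ± 0.197 FPKM (-0.99). *Atf3*, a stress-induced transcription factor, fell from 14.1 ± 0.820 to 1.93 ± 0.243 FPKM (-2.37), and *Junb*, an AP-1 subunit, from 134 ± 1.01 to 75.7 ± 3.12 FPKM (-0.82). *Tsc22d1*, a transcription factor induced by TGF-beta, was higher by 0.16, a call lost without any 1 library but cKO library 2 (adjusted p = 0.0527 to 0.0859). *Atf3* and *Junb* belong, with 2 more of the target genes, to a list of 24 early response genes, of which 20 were tested, 18 were lower and 0 were higher. The summed level of that list was 1179 to 1201 FPKM in CTRL and 682 to 691 FPKM in cKO libraries, and its part in the change of the target genes was not tested.

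**Figure D4:**
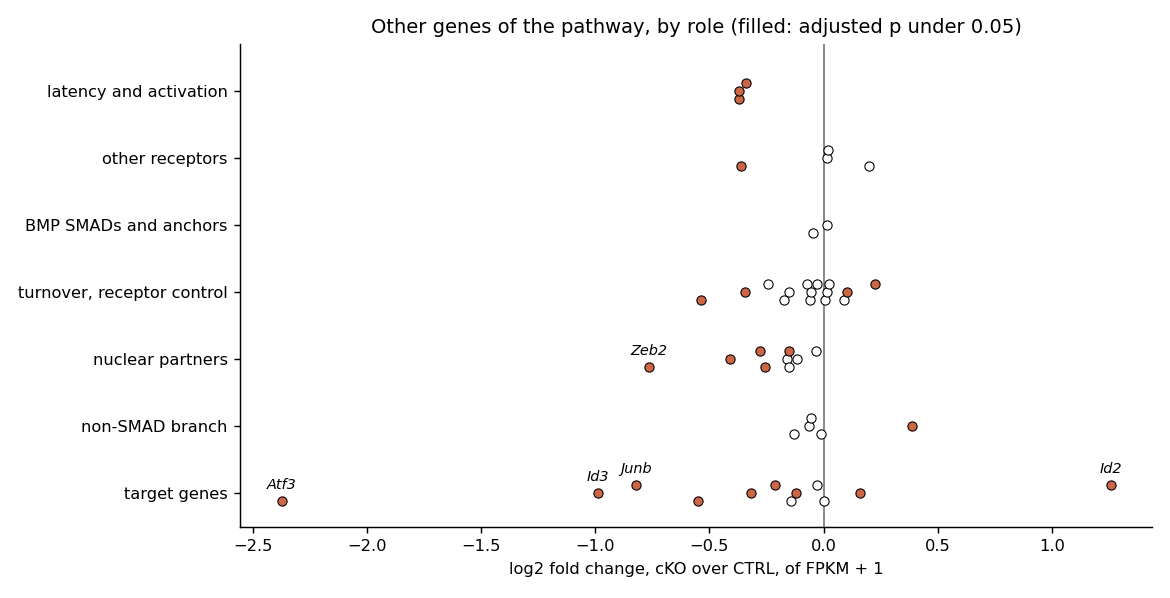
log2 fold change of FPKM + 1, cKO over CTRL (x axis), of the 50 other pathway genes tested, with 1 row for each role, 1 point for each gene (shifted up or down for sight only) and filled points past an adjusted p under 0.05. Genes beyond 0.6 in either direction are labelled: *Atf3* (-2.37), *Id3* (-0.99), *Junb* (-0.82) and *Zeb2* (-0.76) lie on the lower side, and *Id2* (1.26) on the higher side.

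The libraries held 17571544 to 19894562 reads on genes, and their correlations were 0.991 to 0.993 within a group and 0.974 to 0.977 between groups. *Myh9* fell from 22.5 ± 0.495 to 18.7 ± 1.18 FPKM (SD, n = 3, log2 fold change -0.26, adjusted p = 0.00642, limma), and since these values count the whole gene and not the floxed exon alone, they check the labels only in part. With GC content and length trends removed, the log2 fold change of *Myh9* was -0.125 (adjusted p = 0.0468, limma). The LSK markers *Kit*, *Ly6a*, *Cd34* and *Flt3* were present in every library, with a summed level of 201.0 to 205.0 FPKM in CTRL and 203 to 212 FPKM in cKO libraries. Of these 4, *Flt3* rose from 19.8 ± 0.780 to 30.1 ± 1.18 FPKM (SD, n = 3, log2 fold change 0.58), *Kit* fell from 23.9 ± 0.454 to 21.5 ± 0.334 FPKM (-0.14), and the other two did not pass. Markers of more mature cells also differed between the groups, in both directions. All 10 erythroid markers tested of 12 listed were higher, with a sum of 561 to 568 FPKM in CTRL and 1006 to 1046 FPKM in cKO libraries, as were 5 of 5 megakaryocyte markers tested of 11 (68.9 to 72.7 against 141 to 145 FPKM, *Gp1bb* at 0) and 5 of 6 mast cell and basophil markers of 8 (90.3 to 102 against 149 to 159 FPKM). Of 8 monocyte and neutrophil markers, 7 were lower, with a sum of 512 to 519 FPKM in CTRL and 343 to 374 FPKM in cKO libraries. Of 5 B and plasma cell markers tested of 8, 3 were higher and 1 lower (68.3 to 73.2 against 104 to 109 FPKM). Of 4 T and NK cell markers tested of 11, *Trbc2* (log2 fold change 1.69), *Ccl5* (1.73) and *Gzmb* (1.49) were higher and *Nkg7* was lower (-0.34). *Nkg7*, at a mean of 353 FPKM in CTRL and 280 FPKM in cKO libraries, made up most of the sum of this list (366 to 378 against 341 to 344 FPKM), so that the sum does not follow the other markers. The lineage antibody targets stayed low (4.46 to 5.49 against 6.71 to 7.49 FPKM). The part of these cell types in the change of each TGF-beta and SMAD gene was not tested.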

How the data were processed

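LSK cells were sorted from bone marrow and sequenced by the authors. Per the labels, reads were aligned with HISAT2 2.0.5 to mm10; the counting program is not given in the sources used here. The authors deposited FPKM values with gene lengths for 54532 genes, 1 column for each library. Multiplied by length and divided by the value of 1 read estimated for each library, 100% of values came to whole numbers (tolerance 0.1 read). The reads so recovered were 17571544 to 19894562 a library. Intervals from such reads would cover counting error only.

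The 11552 genes whose mean reached 1 FPKM were tested on log2(FPKM + 1) with limma 3.58.1 in R 4.3.3 (lmFit, eBayes with a trend, two-sided, Benjamini-Hochberg). On simulated data, this test called 92.2% of 193 changed genes and 0.106% of 11365 unchanged genes. The 5 values within the pathway used an exact permutation test over libraries. Any 2 replicates differed by more than sampling noise (chi-square per degree of freedom 2.67 to 4.59).

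The members and gene lists were chosen with earlier results of these data known. Named are the 10 members, *Myh9*, and at most 3 genes of each role in each direction by fold change among those with an adjusted p under 0.05; others are said to be named after their values were seen. Markers were named where they check the cells. Alternatives were a pseudocount of 0.1, no filter, at least 5 FPKM, median-of-ratios, quantile and TPM scaling, moderation without a trend or none, a replicate block, voom, removal of GC content and length trends, leaving out each library and, added after seeing the data, at least 0.5 FPKM. Plots were drawn with matplotlib 3.10.9 in Python 3.11.15.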

Additional observations from a re-analysis of the deposited data

How the results depend on the processing

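The 9 genes tested kept their direction in all 158 alternatives computed and their side of the threshold in 144. *Smad2* lost its call in 11, and *Smad3* (2) and *Tgfbr2* (1) gained one, the latter making 1 member higher with GC content and length trends removed. Leaving out each library gave 5 to 7 members called. Those counts include *Skil* wherever a cKO library was left out, since its mean then reached 1 FPKM. The 5 other pathway genes called higher became 3 with no moderation, with TPM scaling and with the replicate block, 11 with voom, and 3 to 5 with a library left out, and the cause was not tested. Other scalings moved the median of all genes by less than 0.1. The 17 other named genes and *Myh9* reversed in 0 of 319 alternatives and lost 25 calls, all of *Ldlrad4*, *Strap* and *Tsc22d1*. Replicate numbers gave no pairing: correlations of same-numbered libraries' deviations were -0.00459, -0.0112 and -0.0262. With the replicate block, 5 members were called, *Smad2* (adjusted p = 0.105) being the call lost. Without a filter, most residual variances were 0, so those adjusted p-values are unreliable. *Smad6* rested on the fewest reads of the 10 genes (73 to 111 a library), except in cKO library 3, where *Skil* had 97 and *Smad6* 106.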
